A study of Rattus norvegicus with 12 samples.

Results

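The question here is whether the gene response of rat cerebellar granule neuron cultures to GW5074 differed between 3 h and 6 h of treatment. The measure is the GW5074 minus low-potassium difference at 6 h minus the same difference at 3 h, called the interaction below, on the log2 scale. All samples of the series enter it, 12 of 12. The labels give 2 treatments (low potassium, GW5074) at each of 2 times (3 h and 6 h), with 3 arrays in each of the 4 groups, lettered A, B and C. Every one of the 31042 non-control probe sets of the rat array was eligible, and 18625, for 10261 named genes, were bright enough to test. No genotype, strain or age is labelled, and no sample carries a label of raised potassium or of no treatment. Whether cultures given GW5074 were in low potassium as well is not labelled. Nor is it labelled whether the letters are separate cultures. The p-values then measure only the spread between these samples, which may be technical. Precision is limited by the number of arrays. The title of GW5074 array A at 6 h ends in a different code from the other 11. That array was analysed with its labelled group.

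Cerebellar granule neurons are the small glutamatergic neurons of the cerebellar cortex, and in culture they depend on raised potassium, which depolarises them and lets calcium enter. Withdrawing it starts their programmed death, in which the stress kinase JNK, the transcription factor JUN and genes that JUN switches on are known to act. GW5074 is a small-molecule kinase inhibitor known for keeping granule neurons alive after potassium withdrawal.

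All 12 arrays carry the same trimmed mean intensity, and the levels of cell type markers differed between the times. Of 12 granule neuron markers 11 are on the array, and their summed deposited intensity was 5998 to 7869 in low potassium and 5791 to 7148 with GW5074 at 3 h, and 11680 to 12920 and 11360 to 14160 at 6 h. Astrocyte markers summed to 1151 to 1649 at 3 h over both treatments and 2039 to 3802 at 6 h, oligodendrocyte markers to 1921 to 2877 at 3 h and 1271 to 2067 at 6 h, microglial markers to 170 to 353 over all arrays, Purkinje and GABAergic neuron markers to 581 to 873 and endothelial and fibroblast markers to 79.5 to 165. Markers of a type did not all move alike. In low potassium the astrocyte marker Gfap averaged 473 at 3 h and 1946 at 6 h, while Slc1a3 averaged 392 and 336. The oligodendrocyte marker Mbp averaged 2267 and 1560 there, while Olig1 averaged 138 and 176. The first principal component (54.7% of the variance) put the 3 h arrays at -0.084 to 0.115 and the 6 h arrays lettered A or C at 1.1 to 1.23, on a scale where the mean of the 3 h arrays is 0 and that of the 6 h arrays is 1. Both 6 h arrays of letter B lay between the times, at 0.691 in low potassium and 0.628 with GW5074. In bulk cultures, fewer cells of a type and less RNA per cell cannot be told apart.

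With arrays compared within their letter, 33 probe sets passed the test for a GW5074 effect that differed between the times. Without that pairing, 0 passed. The 33 carry 19 named genes. Their 6 h effect was above the 3 h effect for 11 of the genes. These include the sodium pump subunits Atp1b1 and Atp1b2, the calcium sensor Ncs1, the adhesion molecule L1cam, the secreted glycoprotein Reln and the Rap regulator Sipa1l2. It was below the 3 h effect for 8, among them the tubulin-binding Stmn4, the stress sensor Gadd45g, the phosphatase inhibitor Anp32a and the PI3-kinase subunit Pik3r1. For 26 of the 33 the effect had opposite signs at the 2 times, and for 32 it was larger in size at 6 h, Anp32a being the exception.

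Compared within pairs (limma with 6 letter-within-time blocks, Benjamini-Hochberg threshold 0.05), those 33 were 0.177% of the probe sets tested. They divide into 16 with the 6 h effect higher (0.0859%) and 17 with it lower (0.0913%). An unadjusted p under 0.05 was found for 2506, where 5% of the probe sets tested is 931. The fit without pairs called 0 of 18625 (0%), with 644, fewer than 931, at an unadjusted p under 0.05, and gave each of the 33 an adjusted p of 0.9998. Arrays sharing a letter and a time deviated together whatever their treatment, which is why the paired values stand beside the others. The paired count also rested on single pairs: it was 2, 1 and 1 without the 3 h pair A, B or C, 0 and 1 without the 6 h pair A or C, and 142 without the 6 h pair B, the pair that lay between the times. With all pairs kept, it was 0 with no filter on dim probe sets, 0 with no mean-variance trend and 1 with a pseudocount of 1. Separation of the pairs was not rare over all probe sets: the 3 pair differences at 6 h all lay on one side of the 3 at 3 h for 33 of the 33, and for 3344 of all probe sets tested (18%).

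**Figure D1:**
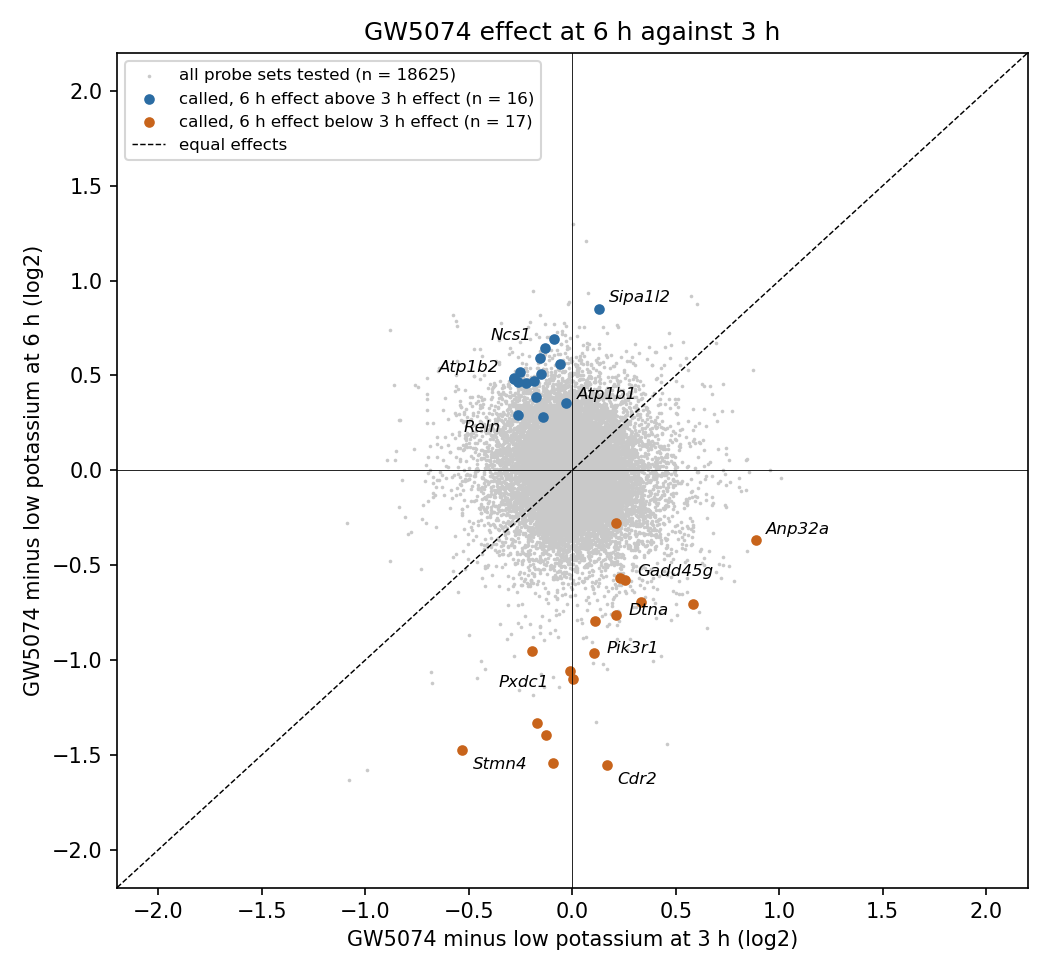
Each point is a probe set, with the GW5074 minus low-potassium difference at 3 h on the x axis and at 6 h on the y axis (log2, 3 arrays per group); grey points are the 18625 tested, blue and orange points the 33 past the paired threshold, and the dashed line marks equal effects. Of the blue points 15 of 16 lie left of 0 at 3 h and all lie above 0 at 6 h, and Stmn4 is the orange point with a negative effect at both times farthest to the left.

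Across the 18625 probe sets the effects at the 2 times had a Pearson correlation of -0.071, a description over probe sets that share the arrays of their groups. Pairs of the same time were weakly alike, with correlations of 0.018 to 0.106 among the 3 h pairs and 0.147 to 0.244 among the 6 h pairs. The SD of the effects was 0.18 at 3 h and 0.22 at 6 h.

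The promoters of the named genes were read for the sites of JUN-containing AP-1 (TGACTCA or its reverse complement TGAGTCA) and of CREB-type factors (CRE, TGACGTCA, the same on both strands). Neither motif contains the other. Shown are the promoters of the genes with the largest called difference in each direction, Tmem163 and Cdr2, and that of Dusp1, a phosphatase that switches MAP kinases off, chosen after its promoter was seen to hold a CRE, in capitals (RefSeq, GRCr8, from 250 bases before to 50 after the gene start, 5′ to 3′ on the gene's strand).
Tmem163 (chr13:41693889-41694188, minus strand): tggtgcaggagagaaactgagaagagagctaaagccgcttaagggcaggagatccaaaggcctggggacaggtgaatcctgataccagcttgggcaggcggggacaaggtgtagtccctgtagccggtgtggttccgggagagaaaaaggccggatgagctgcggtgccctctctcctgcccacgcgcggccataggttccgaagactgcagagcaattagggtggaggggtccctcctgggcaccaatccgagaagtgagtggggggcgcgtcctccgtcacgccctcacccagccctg
Cdr2 (chr1:184958987-184959286, minus strand): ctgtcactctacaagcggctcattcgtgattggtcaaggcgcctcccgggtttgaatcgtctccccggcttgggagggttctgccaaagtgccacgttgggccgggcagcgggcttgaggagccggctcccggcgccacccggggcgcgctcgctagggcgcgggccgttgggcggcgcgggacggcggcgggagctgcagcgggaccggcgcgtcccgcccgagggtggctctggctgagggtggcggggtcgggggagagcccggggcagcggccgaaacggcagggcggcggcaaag
Dusp1 (chr10:17184603-17184902, plus strand): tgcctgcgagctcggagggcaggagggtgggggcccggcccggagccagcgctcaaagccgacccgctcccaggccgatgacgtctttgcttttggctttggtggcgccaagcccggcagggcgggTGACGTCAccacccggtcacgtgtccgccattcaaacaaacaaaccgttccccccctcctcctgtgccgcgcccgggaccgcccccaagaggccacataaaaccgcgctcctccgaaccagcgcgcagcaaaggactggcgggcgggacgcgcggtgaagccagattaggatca
Of the 19 called genes 16 have a promoter in the table, and 0 of the 16 hold an AP-1 or a CRE sequence, against 4.63% (AP-1) and 1.83% (CRE) of all 33469 promoters of the same length. The CRE of Dusp1 starts at base 127. These are matches of letters in a 300-base window and say nothing about binding.

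Among genes of ion transport, both beta subunits of the sodium-potassium pump (the ATPase that restores the ion gradients a neuron spends) had a higher GW5074 effect at 6 h by their brightest probe sets. Atp1b2 had deposited intensities (letters A, B, C) of 576, 495 and 678 in low potassium against 469.7, 415 and 526 with GW5074 at 3 h, and of 1062, 845 and 1211 against 1490.4, 1018 and 1780.5 at 6 h. GW5074 was the lower array of each pair at 3 h and the higher at 6 h, while the groups overlapped in intensity at both times. Its effect was -0.28 at 3 h and 0.48 at 6 h, an interaction of 0.77 (SE 0.12, paired adjusted p = 0.0319). Its dimmer probe set gave 0.62 with overlapping pair differences and did not pass (paired adjusted p = 0.294). Atp1b1 is far brighter, at 7324, 7018 and 8174 in low potassium against 7815, 7041 and 8347 with GW5074 at 3 h, and 5279, 6479.8 and 4418 against 6273, 7603 and 5965 at 6 h. GW5074 was the higher array of every pair on this scale, by more at 6 h than at 3 h in each letter, and the groups overlapped. After normalisation the pair differences were -0.0055, -0.033 and -0.052 at 3 h and 0.38, 0.24 and 0.45 at 6 h, an interaction of 0.39 (SE 0.065, paired adjusted p = 0.0372). It was smaller on the values as deposited, 0.26, and did not pass there (paired adjusted p = 0.212). A dimmer Atp1b1 probe set gave 0.18 and did not pass (paired adjusted p = 0.308).

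Ncs1 (neuronal calcium sensor, a calcium-binding protein of the presynapse) and Tmem163 (a zinc-binding membrane protein of synaptic vesicles) followed. Ncs1 read 513, 461 and 616 in low potassium against 419.9, 441 and 571 with GW5074 at 3 h, and 298, 469.7 and 294 against 583, 690.5 and 392 at 6 h. The low-potassium arrays of letters A and C were the lowest at 6 h, and each GW5074 array lay above its own partner there. Its interaction was 0.78 (SE 0.15, paired adjusted p = 0.0468), from -0.13 at 3 h to 0.64 at 6 h. The other Ncs1 probe sets, both dimmer, gave 0.28 and -0.29 and did not pass (paired adjusted p = 0.638 and 0.697), so the probe sets of this gene disagree. Tmem163 read 358, 452 and 473 against 380.2, 438 and 380.2 at 3 h, and 215, 322 and 209 against 396, 464 and 365 at 6 h, low potassium first. The 3 GW5074 arrays lay above the 3 low-potassium arrays at 6 h without overlap, and the 3 h groups overlapped. Between the times low potassium differed by -0.80 and GW5074 by -0.02, which leaves an interaction of 0.78 (SE 0.15, paired adjusted p = 0.0459).

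Genes of the cell surface and of secreted proteins made up the next group. L1cam (a neural adhesion molecule of growing axons) read 365, 377 and 562 in low potassium against 337, 328 and 381 with GW5074 at 3 h, and 411, 479 and 597 against 678, 662 and 739 at 6 h. All 3 GW5074 arrays were above all 3 low-potassium arrays at 6 h, and the 3 h groups overlapped. The interaction was 0.77 (SE 0.15, paired adjusted p = 0.0468). Reln, the secreted glycoprotein reelin that granule neurons make and that positions migrating neurons, was among the brightest at 2832, 3087 and 3396 against 2358, 2363 and 3096 at 3 h and 2986, 3429.6 and 3989 against 4094, 3778 and 4668 at 6 h. GW5074 lay below its partner in each 3 h pair and above it in each 6 h pair. The groups overlapped at both times, and the interaction was 0.55 (SE 0.10, paired adjusted p = 0.0468). A dimmer Reln probe set gave 0.43 and did not pass (paired adjusted p = 0.169).

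Ptprf (the receptor tyrosine phosphatase LAR) read 276, 288 and 315 in low potassium against 212, 238 and 280.0 with GW5074 at 3 h, and 274, 249.6 and 285 against 389, 346 and 406 at 6 h. The 3 GW5074 arrays lay above all 3 low-potassium arrays at 6 h and the interaction was 0.73 (SE 0.14, paired adjusted p = 0.0468), while a dimmer probe set of the gene gave 0.11 (paired adjusted p = 0.817). Tspan5, a tetraspanin that partners the membrane protease ADAM10, was called by its 2 brightest probe sets, with interactions of 0.66 (SE 0.11, paired adjusted p = 0.0373) and 0.75 (SE 0.12, paired adjusted p = 0.0319). The brightest read 945, 1423 and 1215 in low potassium against 1493, 1733 and 1640.0 with GW5074 at 6 h, with no overlap between the groups. The dimmest Tspan5 probe set gave 0.32 and did not pass (paired adjusted p = 0.322).

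Among signalling genes, Sipa1l2, which switches off the small GTPase Rap, had an effect that was positive at both times. Its intensities were 457, 478 and 567 in low potassium against 481, 559 and 602 with GW5074 at 3 h, and 256, 294 and 279 against 532, 527 and 463 at 6 h. The 6 h low-potassium arrays were the lowest of the 12, and the GW5074 arrays at 6 h lay in the range of the 3 h arrays. The effect was 0.13 at 3 h and 0.85 at 6 h, an interaction of 0.72 (SE 0.13, paired adjusted p = 0.0459). The dimmer Sipa1l2 probe set gave 0.36 (SE 0.29, paired adjusted p = 0.645), with overlapping pair differences. Hectd4 (a HECT-domain ubiquitin ligase) had group means of 687 ± 158 and 582 ± 188 at 3 h and 763 ± 241 and 1028 ± 202 at 6 h (SD, n = 3, low potassium first). Its groups overlapped at both times, and the interaction was 0.68 (SE 0.13, paired adjusted p = 0.0468). Zmiz1, a transcription coregulator, was called only by the dimmer of its probe sets, at 0.77 (SE 0.14, paired adjusted p = 0.042), and its brightest gave 0.49 (paired adjusted p = 0.0702).

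**Figure D2:**
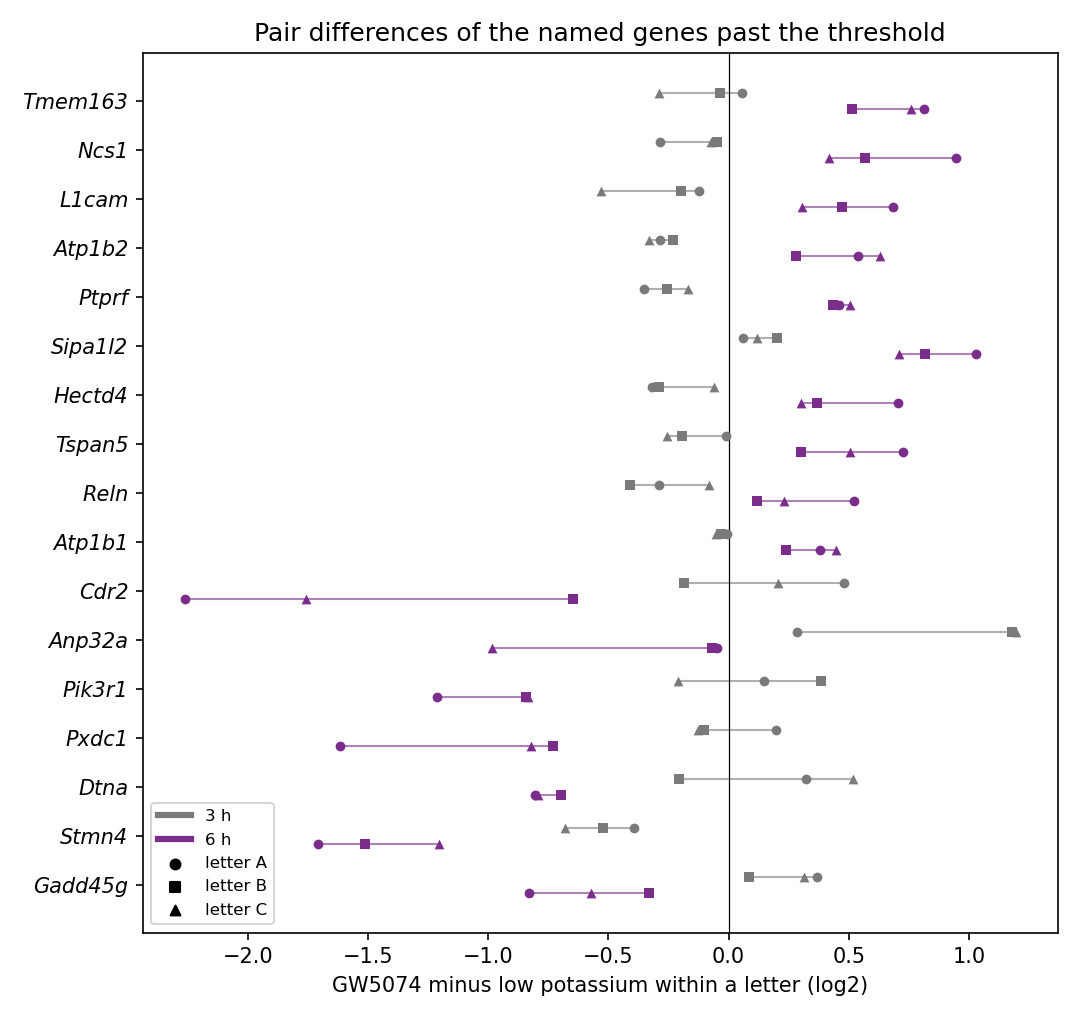
The x axis is the GW5074 minus low-potassium difference within a letter (log2), and each line is one of the 17 genes named as past the paired threshold by their brightest probe set; grey marks are the 3 pairs at 3 h, purple marks the 3 pairs at 6 h, and symbols give the letter. Every gene's purple marks lie on one side of its grey marks, which the naming rule required, and the 6 h pair differences of Cdr2 are larger in size in letters A and C (-2.26 and -1.76) than in letter B (-0.65).

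The largest called difference was that of Cdr2, which encodes a cytoplasmic coiled-coil protein best known as the antigen of a paraneoplastic cerebellar degeneration. It read 267, 316 and 219 in low potassium against 387, 273 and 256 with GW5074 at 3 h, and 606, 398 and 176 against 119.6, 255 and 38 at 6 h. The 6 h arrays spread widely in both treatments and overlapped, but within each letter the GW5074 array was the lower. The interaction was -1.72 (SE 0.29, paired adjusted p = 0.0372), from 0.17 at 3 h to -1.56 at 6 h. Over the fits that left out 1 pair it lay between -2.18 and -1.37.

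Stmn4, a stathmin that binds tubulin and makes microtubules less stable, had a negative effect at both times. Its intensities were 542, 614 and 796 in low potassium against 409.6, 411 and 477 with GW5074 at 3 h, and 2631, 1504 and 1735 against 830.4, 519 and 795 at 6 h. The groups were apart at each time, with GW5074 below low potassium, and the 6 h low-potassium arrays were the highest of the 12. The effect was -0.53 at 3 h and -1.48 at 6 h and the interaction -0.94 (SE 0.13, paired adjusted p = 0.0248). The 6 h level minus the 3 h level was 1.59 in low potassium and 0.65 with GW5074.

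Anp32a, a nuclear phosphoprotein that inhibits the phosphatase PP2A, was the gene whose effect was larger at 3 h. It read 923, 829 and 990.1 in low potassium against 1152, 2035 and 2281 with GW5074 at 3 h, with no overlap, and 1006, 1163 and 1676 against 989, 1116 and 886 at 6 h. The 3 h GW5074 arrays of letters B and C were the highest of the 12, and at 6 h the difference came mainly from letter C. Pair differences were 0.29, 1.18 and 1.20 at 3 h and -0.05, -0.068 and -0.98 at 6 h, an interaction of -1.25 (SE 0.23, paired adjusted p = 0.0459).

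Genes of kinase signalling were also in this group. Pik3r1 (the p85 regulatory subunit of PI3-kinase, which feeds the AKT survival pathway) read 264, 198 and 247 in low potassium against 294, 262 and 213 with GW5074 at 3 h, and 176, 232 and 96 against 63.2, 124 and 45 at 6 h. The GW5074 array was lower than its partner in each 6 h pair, with overlap between the groups, and the interaction was -1.07 (SE 0.19, paired adjusted p = 0.042). Gadd45g, a stress-induced protein that activates the kinase MEKK4 upstream of p38 and JNK, read 1202, 1535 and 1174 against 1638, 1651 and 1429 at 3 h and 846, 783 and 403 against 492, 616 and 267 at 6 h. GW5074 was the higher array of each 3 h pair and the lower of each 6 h pair, and the interaction was -0.83 (SE 0.13, paired adjusted p = 0.0319).

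Dtna, or alpha-dystrobrevin of the dystrophin complex, differed more between letters than between treatments at 6 h, where its intensities were 941, 295 and 1152 in low potassium against 553, 178 and 675 with GW5074. Its pair differences at 6 h were -0.80, -0.70 and -0.79. At 6 h letter B was low in both treatments, and the groups overlapped. At 3 h the arrays read 303, 391 and 339.5 against 391, 338 and 487, and the interaction was -0.98 (SE 0.16, paired adjusted p = 0.0356), with SE 0.66 in the fit without pairs. The other Dtna probe sets gave -0.34 and -0.26 and did not pass (paired adjusted p = 0.437 and 0.84). Pxdc1, named for its PX domain, had group means of 743 ± 238 and 714 ± 139.9 at 3 h and 500.0 ± 228 and 243 ± 148 at 6 h (SD, n = 3, low potassium first). Its interaction was -1.04 (SE 0.19, paired adjusted p = 0.0459). Bclaf1 (a Bcl-2-associated factor of transcription and RNA processing) was called by its dimmer probe set, at -0.80 (SE 0.15, paired adjusted p = 0.0459), while its brightest gave -0.37 (paired adjusted p = 0.151).

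**Figure D3:**
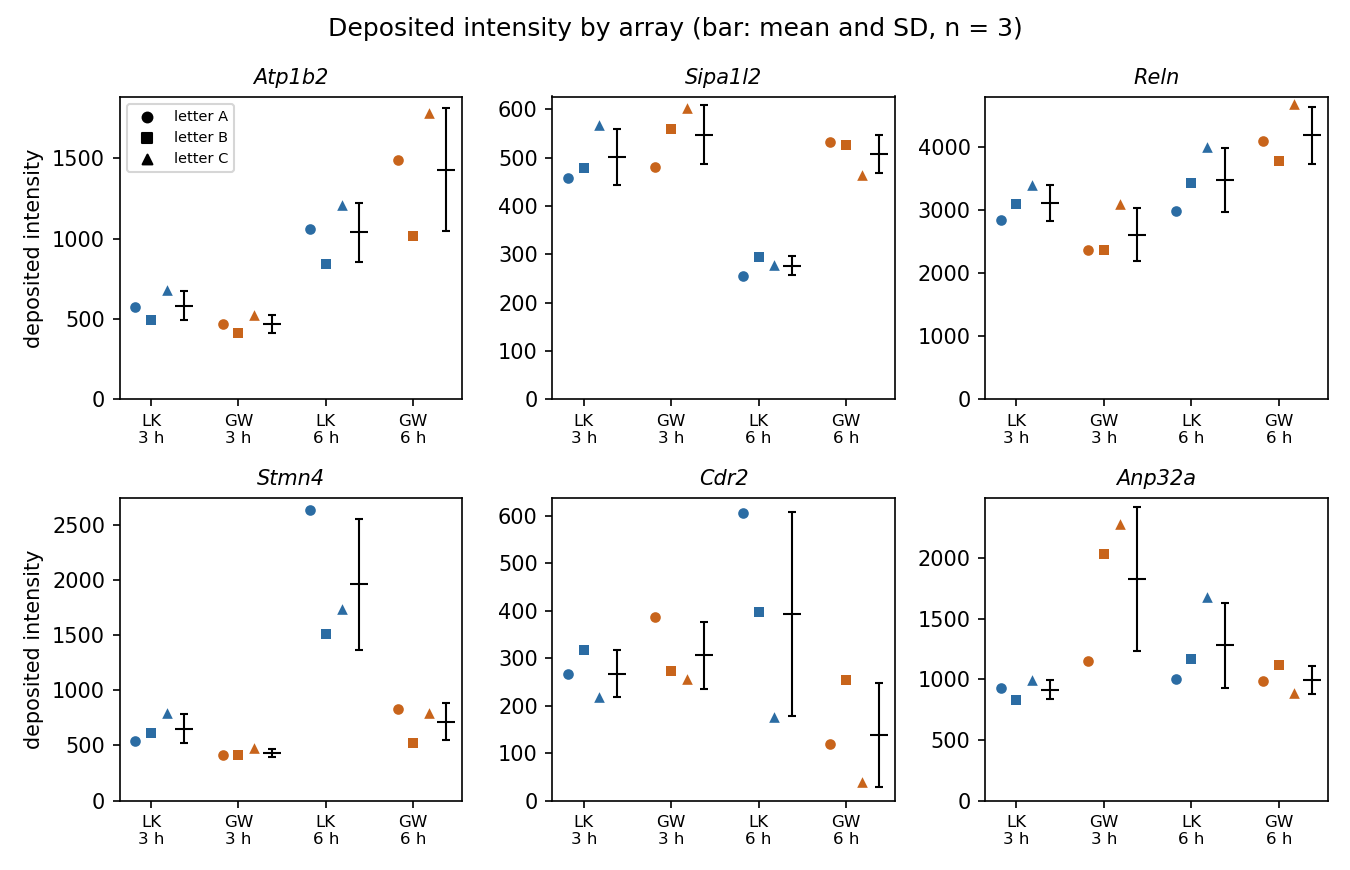
Deposited intensity (linear, y axis from 0) of 6 of these genes on the 12 arrays, by group on the x axis (LK, low potassium; GW, GW5074); symbols give the letter and the bar beside each group its mean and SD (n = 3). The Sipa1l2 panel shows the 6 h low-potassium arrays as the lowest, the Stmn4 panel shows them as the highest, and the Anp32a panel shows 2 of the 3 h GW5074 arrays above all others.

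Of the 33 probe sets, 13 carry no gene symbol in the annotation used here, 4 with the 6 h effect higher and 9 with it lower. The smallest p of all 33 was that of 1377651_at, with intensities of 587, 633 and 698 in low potassium against 589, 681 and 811 with GW5074 at 3 h, and 1491, 1434 and 1643 against 842, 932 and 936 at 6 h. Its 3 h groups overlapped and its 6 h groups did not, and the interaction was -0.91 (SE 0.12, paired adjusted p = 0.0149). The largest unnamed difference was that of 1395806_at, -1.45 (SE 0.26, paired adjusted p = 0.042), and in the other direction 1388551_at had 0.66 (SE 0.11, paired adjusted p = 0.0319).

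Split by treatment, the levels at 6 h and 3 h were compared for each treatment alone, with no test. Of the 16 probe sets with a higher 6 h effect, the low-potassium level was lower at 6 h than at 3 h for 8 and the GW5074 level for 3, with median changes of 0.022 and 0.58. Among the 17 with a lower 6 h effect, the low-potassium level was higher at 6 h for 12 and the GW5074 level for 6, with median changes of 0.81 and -0.42. These changes use the arrays of the interaction itself, so they describe it and do not add to it.

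Other preset genes, most of them known from neuronal death or MAP kinase signalling, did not pass the paired threshold, nor that without pairs. The AP-1 factor Jun had means of 328 ± 35.5 and 147 ± 18.5 at 3 h and 753 ± 140.1 and 256 ± 130.3 at 6 h (SD, n = 3, low potassium first). GW5074 was below low potassium at both times, and the interaction was -0.55 (SE 0.20, paired adjusted p = 0.237). Dusp1, the phosphatase that inactivates MAP kinases and whose promoter is shown above, gave -0.62 (SE 0.17, paired adjusted p = 0.125), with effects of -0.42 at 3 h and -1.05 at 6 h. Plat (tissue plasminogen activator) came nearest among those with a lower 6 h effect, at -0.92 (SE 0.18, paired adjusted p = 0.0555), and read 814, 616 and 474 in low potassium against 325, 428 and 179 with GW5074 at 6 h.

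Hrk, a BH3-only activator of cell death that JUN can induce, gave -1.03 (SE 0.27, paired adjusted p = 0.12) at a dim level, with means of 29.2 ± 8.43 and 40.7 ± 17.2 at 3 h and 109 ± 39 and 55.9 ± 15.2 at 6 h. Atf3, a stress-induced partner of JUN, gave -0.70 (SE 0.30, paired adjusted p = 0.323) and ranged from -1.12 to -0.25 over the alternatives, the smallest without the 6 h pair A. Rai1 (a chromatin-associated regulator) gave 0.68 (SE 0.14, paired adjusted p = 0.0555) and Marchf7, a ubiquitin ligase that the rule added for its small p, -0.60 (SE 0.12, paired adjusted p = 0.0505). Egln3, an oxygen-sensing prolyl hydroxylase that is known to rise in neurons deprived of trophic support, gave -0.15 (SE 0.23, paired adjusted p = 0.838), and Bdnf, the neurotrophin, -0.10 (SE 0.17, paired adjusted p = 0.853). The last 2 changed sign in some alternatives, Egln3 only in fits without pairs. A dimmer Bdnf probe set gave 0.51 (paired adjusted p = 0.631).

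Gene lists are described by counts and by their median interaction, beside all 10261 genes tested, of which 10 were called higher and 7 lower within pairs, 836 and 508 had an unadjusted p under 0.05 in those directions, and the median was 0.02. No list had a member called without pairs. The lists were chosen with earlier results known, and their medians carry no test.

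Ion transport genes and granule neuron genes had the highest medians of the 16 lists described with examples and plotted by pair. The endothelial and fibroblast list, given with the other cell types, had a median of 0.25. Of 42 genes of ion channels, pumps and calcium handling, 3 were called higher (Atp1b1, Atp1b2 and Ncs1) and 0 lower. Among the 42, 13 had an unadjusted p under 0.05 with the 6 h effect higher and 1 with it lower. Their median was 0.22. The list's median effect was -0.067, -0.024 and -0.05 in the 3 h pairs (A, B, C) and 0.33, 0.17 and 0.15 in the 6 h pairs, so the 3 pairs of each time were on opposite sides of 0. Of 31 genes of granule neuron identity, Reln was called, and 10 had an unadjusted p under 0.05 with the 6 h effect higher and 0 with it lower. Their median was 0.22. By pair, the granule neuron list's median effect was -0.0895, -0.000246 and -0.118 at 3 h and 0.307, 0.0144 and 0.148 at 6 h. Letter B thus hardly differed between the times. The vesicular glutamate transporter Slc17a7, which loads glutamate into the vesicles of these neurons, gave 0.44 (SE 0.092, paired adjusted p = 0.0572), and the potassium channel subunit Kcnd2 0.44 (SE 0.13, paired adjusted p = 0.141).

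Other neuronal lists had few or no called members. Of 28 genes of the synaptic vesicle and its release, 0 were called, and 8 had an unadjusted p under 0.05 with the 6 h effect higher and 1 with it lower. Their median was 0.15. The membrane-pinching GTPase Dnm1 gave 0.42 (SE 0.10, paired adjusted p = 0.0875) and the vesicle protein Syn1 0.59 (SE 0.15, paired adjusted p = 0.107). Of 28 transmitter receptors 0 were called, and 7 had an unadjusted p under 0.05 with the 6 h effect higher and 1 with it lower. Their median was 0.14. Grm4, a glutamate receptor of granule neuron terminals, gave 0.68 (SE 0.15, paired adjusted p = 0.0717) and the AMPA receptor subunit Gria4 0.62 (SE 0.18, paired adjusted p = 0.155). Among 30 genes of adhesion and axon guidance L1cam was called, and 5 had an unadjusted p under 0.05 with the 6 h effect higher and 1 with it lower. Their median was 0.17. By pair (A, B, C), the adhesion list's median effect was -0.12, 0.078 and -0.0149 at 3 h and 0.251, -0.0625 and 0.0736 at 6 h. In letter B it was thus lower at 6 h. The axon initial segment protein Nfasc gave 0.65 (SE 0.16, paired adjusted p = 0.106) and the guidance receptor Boc 0.54 (SE 0.16, paired adjusted p = 0.157). Of 33 genes of microtubules and axon transport Stmn4 was called lower, while 11 had an unadjusted p under 0.05 with the 6 h effect higher and 1 with it lower. Their median was 0.09. The tubulin Tubb4a gave 0.64 (SE 0.17, paired adjusted p = 0.116) and the microtubule-associated Map1a 0.54 (SE 0.14, paired adjusted p = 0.118).

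**Figure D4:**
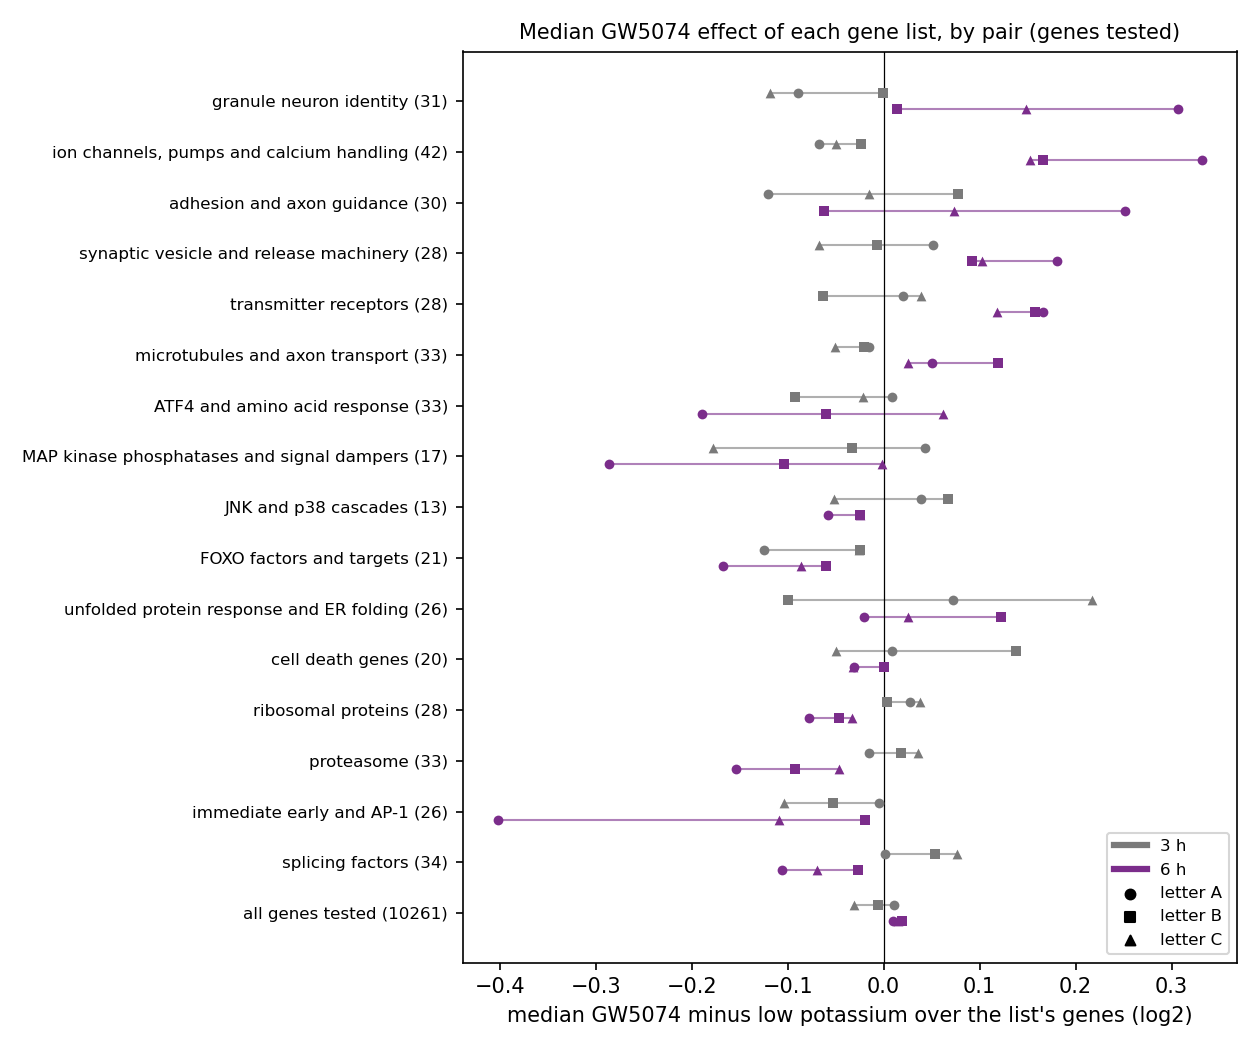
The x axis is the median GW5074 minus low-potassium difference over the tested genes of a list (log2), one line per list with the number of genes in brackets, grey for the 3 h pairs and purple for the 6 h pairs, symbols giving the letter. The ion channel list has its 3 h pairs at -0.067 to -0.024 and its 6 h pairs at 0.15 to 0.33, while all genes tested stay near 0 at both times.

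Signalling and stress lists held 1 called gene. Of 17 MAP kinase phosphatases and signal dampers, Gadd45g was called lower, and 1 had an unadjusted p under 0.05 with the 6 h effect higher and 3 with it lower. Their median was -0.02. Dusp6, a phosphatase specific to ERK, had effects of 0.42 at 3 h and -0.023 at 6 h and an interaction of -0.44 (SE 0.18, paired adjusted p = 0.29), which was -0.24 without the 6 h pair A. Of 13 genes of the JNK and p38 cascades 0 were called, and 1 had an unadjusted p under 0.05 with the 6 h effect higher and 1 with it lower. Their median was -0.023, and Mapk8, which encodes JNK1, gave -0.30 (SE 0.14, paired adjusted p = 0.364). Of 26 immediate early and AP-1 genes 0 were called, and 1 had an unadjusted p under 0.05 with the 6 h effect higher and 5 with it lower. Their median was -0.10. By pair, the list's median effect was -0.0048, -0.053 and -0.10 in the 3 h pairs and -0.40, -0.019 and -0.11 in the 6 h pairs, most negative in letter A at 6 h. Jund gave -0.39 (SE 0.10, paired adjusted p = 0.121) and the zinc finger factor Egr1 -0.55 (SE 0.16, paired adjusted p = 0.157).

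Cell death and stress response lists had 0 called members each. Of 20 cell death genes, 1 had an unadjusted p under 0.05 with the 6 h effect higher and 1 with it lower. Their median was -0.044, the BH3-only gene Bid giving 0.34 (SE 0.15, paired adjusted p = 0.317) and the survival gene Mcl1 -0.20 (SE 0.11, paired adjusted p = 0.453). Among 21 FOXO factors and targets, 2 had an unadjusted p under 0.05 with the 6 h effect higher and 1 with it lower. Their median was -0.028, with Foxo3 itself at 0.34 (SE 0.12, paired adjusted p = 0.231). Of 33 genes of the ATF4 and amino acid response, 2 had an unadjusted p under 0.05 with the 6 h effect higher and 2 with it lower. Their median was 0.0081, and Ddit3, the stress factor CHOP, gave -0.65 (SE 0.17, paired adjusted p = 0.113). Without the 6 h pair A, Ddit3 gave -0.43 and Foxo3 0.22, and without the 3 h pair B Mcl1 gave -0.13. For 26 genes of the unfolded protein response, 2 had an unadjusted p under 0.05 with the 6 h effect higher and 4 with it lower. Their median was -0.042, with the sensor kinase Eif2ak3 (PERK) at -0.76 (SE 0.20, paired adjusted p = 0.122) and the chaperone Dnajb9 at -0.41 (SE 0.13, paired adjusted p = 0.165). The medians of the cell death, FOXO and unfolded protein lists, and of the JNK and p38 and the phosphatase lists, turned positive when arrays were only shifted to a common median. They were then 0.00051 to 0.036, while the median of all probe sets tested also moved, from 0.0027 to 0.041. No direction is read from these list medians.

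Lists of general RNA and protein machinery had medians below 0 under each scaling tried. Of 34 splicing factors 0 were called, and 1 had an unadjusted p under 0.05 with the 6 h effect higher and 6 with it lower. Their median was -0.13, with the SR protein Srsf5 at -0.39 (SE 0.11, paired adjusted p = 0.137) and the splicing kinase Clk1 at -0.43 (SE 0.15, paired adjusted p = 0.212). Of 28 ribosomal protein genes 0 were called, and 0 had an unadjusted p under 0.05 with the 6 h effect higher and 8 with it lower. Their median was -0.081, with Rpl14 at -0.29 (SE 0.072, paired adjusted p = 0.106). On the values as deposited the ribosomal median was -0.23. Of 33 proteasome genes 0 were called, and 0 had an unadjusted p under 0.05 with the 6 h effect higher and 6 with it lower. Their median was -0.10, and the lid subunit Psmd6 gave -0.27 (SE 0.091, paired adjusted p = 0.204).

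A further 10 lists had 0 called members each: heat shock, cholesterol, glycolysis and hypoxia, NRF2 and AhR targets, p53 and cell cycle, neurotrophins and growth factors, chromatin, oxidative phosphorylation, autophagy and lysosome, and extracellular proteases and matrix. Their medians ran from -0.14 (NRF2 and AhR targets) to 0.083 (neurotrophins and growth factors). Of the 22 neurotrophin and growth factor genes 5 had an unadjusted p under 0.05 with the 6 h effect higher and 0 with it lower.

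Markers of other cells and RNA controls were read in the same pairs. None of the tested defining markers was called, neither those of granule neurons nor those of the other cell types. Interactions were -0.04 to 0.607 for granule neurons, -0.21 to 0.042 for astrocytes and -0.029 to 0.57 for the oligodendrocyte lineage. They were 0.14 to 0.41 for microglia, 0.245 to 0.54 for endothelium and fibroblasts and -0.475 to -0.016 for Purkinje and GABAergic neurons. The 12 astrocyte genes of the wider list had median effects of 0.084, -0.12 and -0.18 in the 3 h pairs A, B and C and -0.43, 0.058 and -0.19 in the 6 h pairs. The 12 microglial genes gave 0.15, 0.0012 and -0.23 at 3 h and -0.51, 0.0098 and -0.075 at 6 h, and at 6 h both lists were lowest in letter A. Oligodendrocyte genes (10 tested) gave -0.037, -0.24 and -0.24 at 3 h and -0.26, 0.22 and -0.061 at 6 h, and Purkinje and GABAergic neuron genes (12 tested) 0.0086, 0.043 and -0.059 and -0.14, 0.0065 and -0.18. Of 15 endothelial and fibroblast genes on the array 5 were bright enough to test, and their median interaction was 0.25, above the 0.22 of the ion transport and granule neuron lists. On the values as deposited it was 0.19, below their 0.21 and 0.22. Their median effects were -0.64, -0.36 and -0.23 at 3 h and -0.044, -0.047 and -0.079 at 6 h, so the 3 h pairs were the lower, as in the ion transport list. Acta2 (smooth muscle actin) gave 0.82 (SE 0.21, paired adjusted p = 0.109) and the collagen Col3a1 0.54 (SE 0.23, paired adjusted p = 0.306), while Tagln, an actin-binding protein of smooth muscle, gave -0.83 (SE 0.19, paired adjusted p = 0.0792). The microglial genes Aif1 and Itgam and the endothelial genes Pecam1 and Cldn5 were too dim to test. The actin 3-prime minus 5-prime difference, a measure of RNA integrity, gave a 6 h minus 3 h difference of -0.0018 (exact permutation p = 1, n = 3 pairs each) and GAPDH -0.0094 (exact permutation p = 0.7). By pair (A, B, C), GW5074 minus low potassium for actin was 0.022, 0.0182 and 0.297 at 3 h and 0.112, 0.184 and 0.0355 at 6 h. GW5074 array C at 3 h had the highest actin value of the 12, 1.359. The poly-A spike-ins, added to each RNA before labelling, gave GW5074 minus low-potassium values of -0.43, -0.087 and -0.451 in the 6 h pairs and -0.101, 0.189 and -0.0047 in the 3 h pairs. The difference of their means was -0.35 (exact two-sided permutation p = 0.2, where 0.1 is the smallest this design allows). The log2 spike-in level itself was 7.485 to 7.674 on the 3 h arrays of letters B and C. On the 3 h arrays of letter A it was 6.489 (low potassium) and 6.388 (GW5074), and at 6 h 6.456 to 6.91. The bearing of the glial, endothelial and fibroblast, actin and spike-in differences on the called genes was not tested.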

How the data were processed

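RNA from rat cerebellar granule neuron cultures was measured on 12 Affymetrix rat arrays, 3 in each of 4 labelled groups. The deposited values are 1 linear intensity per probe set and array, and the authors scaled the arrays alike: with the extreme 2% at each end left out, every array averages 150.1, as computed from the values. The software and the summarisation of probe sets were not given in the sources used here. Of 31099 probe sets 57 are controls. Of the rest, 20826 carry 1 symbol, 436 several and 9780 none, and 20758 matched a rat gene table (GRCr8, used for names and promoters) by Entrez identifier.

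Values were quantile-normalised, 16 was added and log2 taken, so log2 differences understate changes of dim genes. Probe sets with a mean at or above the 40th percentile (intensity 28) were tested with limma 3.58.1 in R 4.3.3 (lmFit, eBayes with a trend, two-sided, Benjamini-Hochberg at 0.05). The first fit had 4 group means and no block (8 residual degrees of freedom). The second, the paired fit, had 6 blocks of letter within time (4 residual degrees of freedom). The labels' letters supply the pairing. After removal of the group means, the 2 arrays of a letter at one time correlated by 0.21 to 0.65, and arrays of a letter across times by -0.067 to 0.182, so times were not paired. Effects and pair differences are on the log2 scale, and a mean intensity with its SD is taken over the deposited values. Control probe sets were compared over the 6 pairs with an exact two-sided permutation test.

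A gene is represented by its brightest probe set. Named are the up to 12 largest called differences in each direction whose 6 h pair differences all lie on one side of those at 3 h, filled to 8 with the smallest p, then up to 3 members of every list in the text, and 10 preset genes (Jun, Stmn4, Dusp1, Plat, Sipa1l2, Atf3, Hrk, Rai1, Egln3 and Bdnf). Zmiz1, Bclaf1, Acta2, Col3a1, Tagln and the probe sets without a symbol fall outside this rule and were named after their values were seen. Members, lists and motifs were chosen with earlier results of these data known. Alternatives changed the scaling, pseudocount, filter, variance trend, array weights and block, and left out each array or pair. The fits were also run on simulated data. The differences added there exceeded in size every called one but that of Cdr2, so smaller ones were not covered. Plots were made in Python 3.11.15 with matplotlib 3.10.9.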

Additional observations from a re-analysis of the deposited data

Results flagged for a closer look

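Each value here is a difference between the GW5074 effects at 6 h and at 3 h, and each was singled out because the paired test of that difference passed its threshold. Across the array 33 probe sets did so within pairs and 0 without pairs. The 6 h effect was higher for Tmem163 (0.78), Ncs1 (0.78), L1cam (0.77), Atp1b2 (0.77), Ptprf (0.73), Sipa1l2 (0.72), Hectd4 (0.68), Tspan5 (0.66), Reln (0.55) and Atp1b1 (0.39), all on the log2 scale. It was lower for Cdr2 (-1.72), Anp32a (-1.25), Pik3r1 (-1.07), Pxdc1 (-1.04), Dtna (-0.98), Stmn4 (-0.94) and Gadd45g (-0.83).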

How the results depend on the processing

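The fit without pairs called 0 probe sets, and also 0 with a random replicate block (lowest adjusted p 0.0596) and with letters blocked across times (lowest adjusted p 0.75). With the replicate block of letter within time it called 33. That paired count was 60 when arrays were only shifted to a common median, 1 with a pseudocount of 1, 0 with no filter on dim probe sets and 0 with no mean-variance trend. It stayed within 1.5 times of 33 on the values as deposited (25), with a pseudocount of 64 (33), with a filter at the 60th percentile (48) and with array weights (35). Leaving out 1 pair gave 0 to 142, and 31 of the 33 were among the 142 called without the 6 h pair B. Of the 17 genes named as called, 14 passed in 1 of the 6 fits that left out a pair and 3 (Anp32a, Dtna and Stmn4) in 2, and all 17 kept their sign in the 14 alternatives. The naming rule barred overlap of their pair differences, which all but fixes the sign in the 6 fits that left out a pair. Over 67 probe sets of named genes, sign and side of the threshold stayed for 1512 of 1537 alternatives to the fit without pairs. The 20 values that newly passed did so with the letter-within-time block, which is the paired fit itself. They are the 20 called probe sets with a symbol. As the fit without pairs called 0 probe sets, a value that stayed there stayed uncalled. Within pairs sign and side stayed for 757 of 934, while 164 no longer passed and 12 newly did. Signs turned for genes that never passed. Without pairs, Slc7a5 gave -0.045 with array weights, and -0.055 (without GW5074 array C at 6 h) to 0.64 over the fits that left out an array. Egln3 ranged in those fits from -0.58 to 0.196 and was also positive, at 0.157, without GW5074 array C at 6 h. Bdnf ranged from -0.32 to 0.034, and within pairs from -0.29 to 0.036. The cause of these changes was not tested. Signal limits dim genes such as Hrk, whose low-potassium mean of 29.2 at 3 h was close to the filter's intensity of 28.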
